A study of Mus musculus with 24 samples.

Results

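The early growth response factors Egr1, Egr2, Egr3 and Egr4 and the orphan nuclear receptors Nr4a1, Nr4a2 and Nr4a3 were examined in the hippocampus of aged Tg2576 mice. These 7 genes were chosen by name, each through the probe set annotated to it alone, and each had exactly 1 such probe set. All 7 passed the filter on low values and were read among 17108 coding genes tested. Tg2576 mice carry a human amyloid precursor protein transgene with the Swedish mutation under the prion promoter, and every group carried it, so no group without the transgene was compared. The labels give the strain as B6.Cg-Tg(APPswe)E1-2Dbo/J and the age as 16 to 18 months, and the mice were female by the study's methods. They received vorinostat, an inhibitor of histone deacetylases (3 arrays), tadalafil, an inhibitor of phosphodiesterase 5 (3 arrays), both drugs in combination (7 arrays), the compound coded CM-414 (4 arrays), or vehicle, called saline by the labels and a dilution of DMSO in saline by the methods (7 arrays). After dosing over 4 weeks, daily by the study's methods, came 4 weeks without drug, so the arrays read RNA long after the last dose. By the same methods a reversal phase of the Morris water maze followed, and the mice were killed a day after its last probe. Those methods describe arrays of 3 animals per group and do not name CM-414. Sex and maze training are thus not stated for every array. Each array held the hippocampal RNA of a biological replica, and the values are log2 expression on Affymetrix arrays.

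Egr and Nr4a genes are immediate early genes: synaptic activity, through calcium and cyclic nucleotide signalling to CREB, SRF and MEF2, switches on their transcription within minutes, with no new protein needed. Egr proteins are zinc finger factors that bind GC-rich sites and are held in check by the corepressors Nab1 and Nab2, whereas Nr4a proteins are nuclear receptors that act without a classical ligand, as monomers or with retinoid X receptors. In rodent hippocampus both families rise after learning, Egr1 is needed for lasting potentiation and memory, and Nr4a1 and Nr4a2 are known as genes whose induction is enhanced by inhibitors of histone deacetylases.

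Promoter windows from RefSeq (GRCm38.p6, the 250 bases before a transcription start) were found for 5 of the 7 genes. Those of Nr4a1, Egr2 and Nr4a3 are shown because Nr4a1 and Egr2 varied together between the arrays described below, while Nr4a3 stayed nearly level in most of them. Capitals mark the core of the cyclic AMP response element that CREB binds (TGACG, read on both strands), the site of Egr proteins (GCGNGGGCG, both strands) and the CArG box of SRF. The windows lie at chr15:101266596-101266845 (Nr4a1), chr10:67537619-67537868 (Egr2, the third of 5 starts) and chr4:48045055-48045304 (Nr4a3), all on the plus strand.
Nr4a1: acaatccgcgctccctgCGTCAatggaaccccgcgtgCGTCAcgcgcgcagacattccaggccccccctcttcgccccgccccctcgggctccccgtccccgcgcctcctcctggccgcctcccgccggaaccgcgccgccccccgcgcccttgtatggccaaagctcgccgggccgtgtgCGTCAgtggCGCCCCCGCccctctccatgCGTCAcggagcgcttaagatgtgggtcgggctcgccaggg
Egr2: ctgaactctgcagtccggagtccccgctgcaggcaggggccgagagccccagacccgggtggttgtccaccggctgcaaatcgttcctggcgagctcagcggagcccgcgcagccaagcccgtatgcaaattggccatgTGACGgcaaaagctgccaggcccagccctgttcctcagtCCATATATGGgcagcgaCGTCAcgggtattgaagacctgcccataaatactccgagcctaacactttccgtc
Nr4a3: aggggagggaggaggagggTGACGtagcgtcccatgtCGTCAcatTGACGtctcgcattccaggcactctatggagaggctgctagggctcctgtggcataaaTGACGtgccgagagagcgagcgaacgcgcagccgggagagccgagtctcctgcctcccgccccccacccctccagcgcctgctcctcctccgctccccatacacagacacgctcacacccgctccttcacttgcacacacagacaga
The Nr4a1 window held 4 CREB cores, at 233, 213, 69 and 40 bases before the start, and an Egr site at 60 bases. The Nr4a3 window also held 4 CREB cores, the nearest at 147 bases, and no Egr site. At least 4 CREB cores stood in 0.137% of the 32851 windows in the table, and an Egr site in 4.7%. The Egr2 window shown held 2 CREB cores and a CArG box at 72 bases, against 3.9% of windows with at least 2 CREB cores and 1.47% with a CArG box. Of the 5 Egr2 windows, the first held none of the motifs sought, and the second held a CArG box but no CREB core. The window of Nr4a2 held 4 CREB cores and an Egr site and that of Egr4 held 2 CREB cores. None of the members' windows held the full element TGACGTCA or the Nr4a site AAAGGTCA, which stood in 1.55% and 1.34% of all windows. Windows of neighbouring starts of a gene overlap, and a match only describes the letters.

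Arrays of the same group differed in tissue content. Vehicle 3 and CM-414 3 had means of 8.57 and 8.84 over 12 thalamus markers, against 7.02 to 7.76 in the other 22 arrays, and of 7.19 and 6.92 over 7 markers of CA1 pyramidal neurons, against 8.57 to 8.96. The thalamic transcription factor Tcf7l2 was at 10.55 in the first of these and 10.05 in the second (5.84 to 7.18 in the others). The mean of markers of midbrain dopamine neurons was 6.84 in CM-414 3 and, just above the other arrays, 6.01 in vehicle 3 (5.73 to 5.95 in the others). Of these markers, Th and Slc6a3 were at 8.77 and 7.75 in CM-414 3. In vehicle 3 they were at 6.47 and 6.25, inside the ranges of the other arrays (5.70 to 6.51 and 5.73 to 6.51). The arrays further fell into 2 sets by Snord13, a small nucleolar RNA. It lay at 10.35 to 11.46 in the second set (vehicle and combination replicas 4-7 and all CM-414 arrays) and at 7.27 to 8.46 in the first set (vehicle and combination replicas 1-3 and all vorinostat and tadalafil arrays), with 12 arrays in each. Vorinostat and tadalafil can thus be set against vehicle within the first set only, and CM-414 within the second. Results are given with all 24 arrays and without vehicle 3 and CM-414 3, called the thalamus-rich arrays from here on. Vehicle 2, which was kept, alone set the upper end of 7.76 for the thalamus markers, and the next highest kept array was vehicle 7 at 7.30. Differences from vehicle 1-3 without the thalamus-rich arrays rest on vehicle 1 and vehicle 2. In dissected tissue, fewer cells of a type and less RNA per cell cannot be told apart.

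Of the 7 genes, 6 were lower in vehicle 3 and CM-414 3 than in every other array. Vehicle 3 held 6.28 and CM-414 3 held 6.60 for Nr4a3, against 8.62 to 9.10 in the other 22 arrays. Egr3 was at 6.52 and 6.07, against 8.11 to 8.63, and Nr4a2 at 7.69 and 8.49, against 9.49 to 10.35. Set against the mean of the other 22, these 3 genes differed by -2.61 to -1.41 on the log2 scale. Nr4a1 was at 7.91 and 7.55, against 8.42 to 10.23, Egr1 at 7.67 and 7.60, against 8.01 to 9.19, and Egr4 at 6.03 and 6.02, against 6.47 to 7.15. Egr2 was the exception, since its 6.26 and 6.00 lay inside the range of the other arrays (5.82 to 7.43). The part of the thalamic tissue in these low values was not tested.

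**Figure D1:**
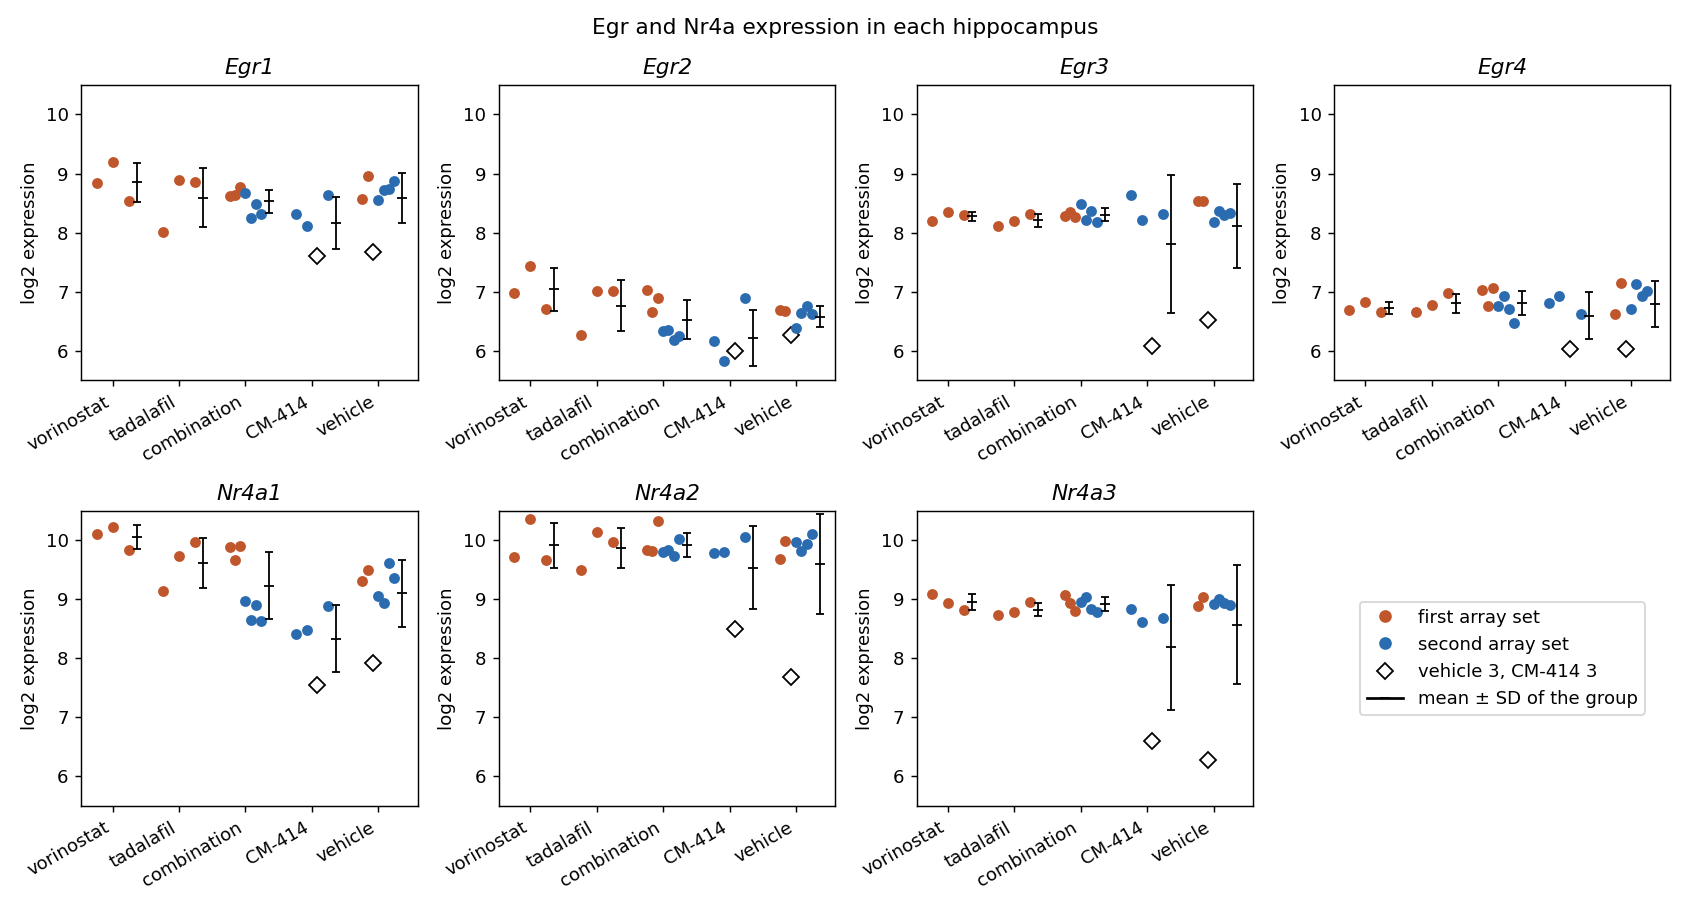
Log2 expression of the 7 genes in each array, by group, coloured by array set, with the mean ± SD of each group beside its arrays (n = 3, 3, 7, 4 and 7). The open diamonds of vehicle 3 and CM-414 3 lie below all other arrays for 6 of the 7 genes, and Nr4a1 and Egr2 split the combination arrays by set.

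**Figure D2:**
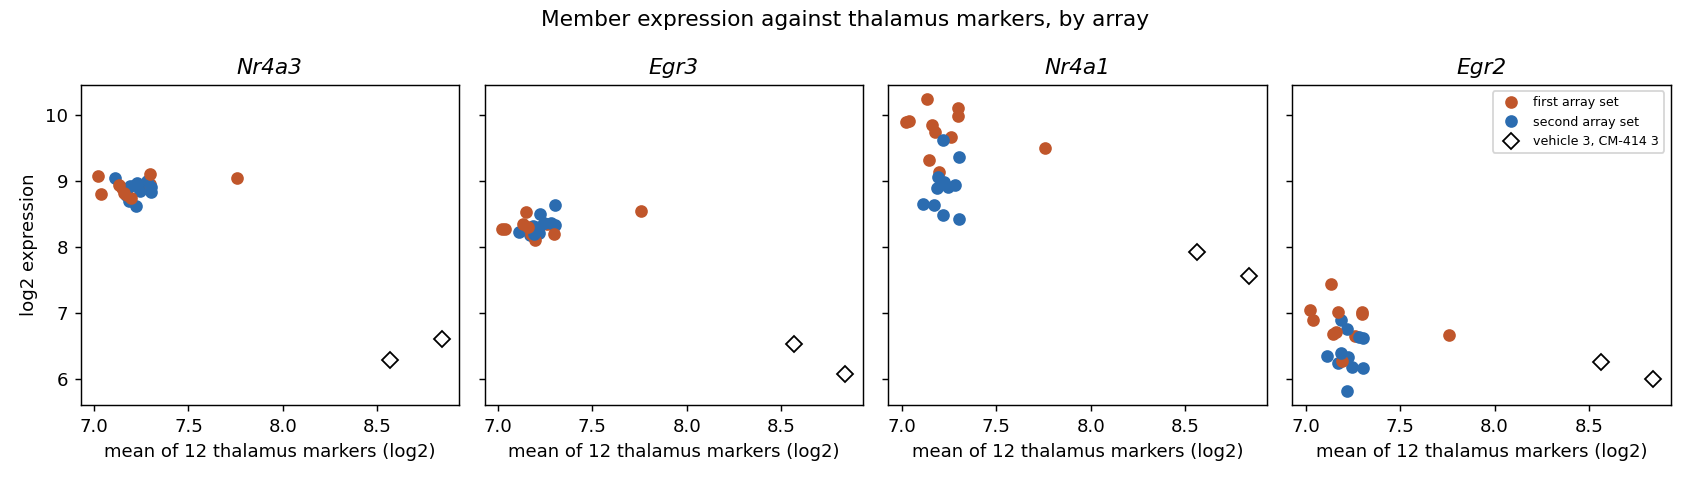
Log2 expression of Nr4a3, Egr3, Nr4a1 and Egr2 in each of the 24 arrays against the mean log2 value of 12 thalamus markers. Vehicle 3 and CM-414 3 stand alone at marker means of 8.57 and 8.84, and Nr4a1 and Egr2 vary among arrays whose marker means are alike.

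Apart from these arrays the genes differed in how much animals of a group varied. The SD within groups (with each array set of vehicle and combination taken as its own group) was 0.11 for Nr4a3 and 0.12 for Egr3 over 22 arrays, below the median of 0.14 for all genes tested. It was 0.30 for Egr2, 0.27 for Egr1, 0.26 for Nr4a1 and 0.24 for Nr4a2, each wider than in at least 90.2% of genes, and 0.18 for Egr4. With all 24 arrays the order was different: Nr4a3 (0.70) and Egr3 (0.64) then spread more than 99.7% and 99.5% of genes. Egr2 alone kept its value, with 0.30 in both.

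**Figure D3:**
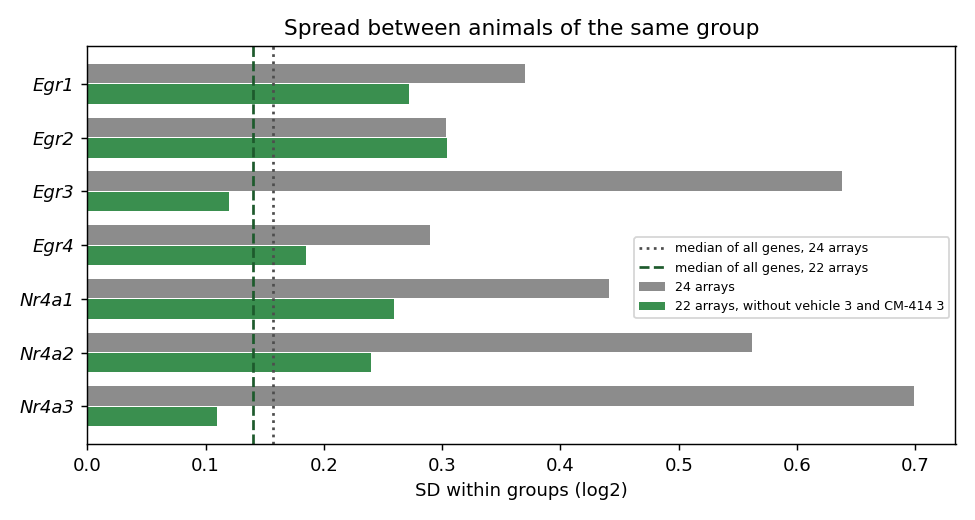
SD within groups of each gene (log2), over all 24 arrays in grey and over 22 arrays without vehicle 3 and CM-414 3 in green, with the medians of all 17108 genes as vertical lines. Nr4a3 and Egr3 drop from the widest to below the median of all genes, while Egr2 stays at 0.30.

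Differences among the 5 groups were first tested together, with limma over all 24 arrays and p-values adjusted over all genes. None of the 7 genes passed the adjusted p of 0.05 (0 of 7, against 0.152% of all genes), and 2 of 7, Nr4a1 and Egr2, had an unadjusted p under 0.05 (13.7% of all genes). Nr4a1 came closest, with an unadjusted p of 0.0014 and an adjusted p of 0.11, followed by Egr2 with an adjusted p of 0.29. The adjusted p of the others was 0.53 to 0.91. With vehicle 3 left out the adjusted p of Nr4a1 was 0.0493 (0.438% of genes passed there), without both vehicle 3 and CM-414 3 it was 0.0981 (0.164%), and with the array set as a block it was 0.661 (0%).

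Nr4a1, also called Nur77, regulates neuronal metabolism and spine density, and it had the smallest p of the 7 genes in the test among groups. It was at 10.11, 10.23 and 9.84 in the vorinostat arrays and at 9.14, 9.73 and 9.97 in the tadalafil arrays. The combination arrays held 9.89, 9.67, 9.91, 8.98, 8.64, 8.90 and 8.63, and CM-414 arrays 8.42, 8.49, 7.55 and 8.89. Vehicle arrays held 9.32, 9.49, 7.91, 9.06, 8.93, 9.62 and 9.36. All 3 vorinostat arrays therefore lay above every vehicle array, whereas tadalafil, combination and CM-414 arrays each overlapped with vehicle. For CM-414 the overlap rested on vehicle 3, since the other vehicle arrays held 8.93 or more and the CM-414 arrays 8.89 or less. Without vehicle 3 and CM-414 3, Nr4a1 and Nr4a3 did not overlap between CM-414 and vehicle, as was so for 4.64% of genes.

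Vorinostat arrays averaged 10.06 ± 0.20 for Nr4a1 (SD, n = 3) and vehicle arrays 9.10 ± 0.57 (SD, n = 7), a difference of 0.96 ± 0.33 (SE, log2; 1.94-fold) with an adjusted p of 0.40 in limma. Within the first array set the difference from vehicle 1-3 was 1.15 ± 0.33 (adjusted p = 0.433), and without the thalamus-rich arrays it was 0.65 ± 0.21 against the remaining pair of vehicle arrays (adjusted p = 0.341). The array set block without vehicle 3 and CM-414 3 gave 0.33 ± 0.23. Vorinostat, tadalafil and CM-414 each lie in a single set. The array set block, here and elsewhere, therefore applies to them a set difference estimated from vehicle and combination. It takes that difference as equal in both groups. For Nr4a1 without the thalamus-rich arrays it was -0.16 in vehicle and -1.03 in the combination. Of the 7 genes, 0 passed the adjusted p for vorinostat against vehicle (0.00585% of genes did), and 2, Nr4a1 and Egr2, had an unadjusted p under 0.05 (8.76% of genes). Nr4a1 alone did not overlap between these groups, as was so for 3.48% of genes in either direction. Against vehicle 1-3 the same counts were 0 (0.00585% of genes) and 2 (8.58%), again Nr4a1 and Egr2.

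Egr2, which drives myelination in Schwann cells and is induced by strong activity in neurons, was at 6.98, 7.43 and 6.71 in vorinostat arrays and at 6.27, 7.01 and 7.01 in tadalafil arrays. Combination replicas 4-7 held 6.33, 6.34, 6.18 and 6.25 and combination replicas 1-3 held 7.04, 6.65 and 6.89. CM-414 arrays held 6.16, 5.82, 6.00 and 6.89, and vehicle arrays 6.26 to 6.75 with a median of 6.64. Vorinostat arrays were 0.47 ± 0.21 (SE) above vehicle (adjusted p = 0.545 in limma), with overlapping ranges. The array set block brought the difference to 0.32 ± 0.23, and to 0.18 ± 0.23 without the thalamus-rich arrays.

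Tadalafil arrays differed less from vehicle. The largest difference was that of Nr4a1, at 0.51 ± 0.33 (SE, log2; adjusted p = 0.94 in limma), and those of the other genes lay between 0.00 and 0.27. None of 7 passed the adjusted p, as none of all genes did (0%), and 0 had an unadjusted p under 0.05 (5.32% of genes). Against vehicle 1-3 the counts were 0 (0%) and 1 (5.34%), Nr4a1, at 0.71 ± 0.33. That difference of Nr4a1 was 0.21 ± 0.21 without the thalamus-rich arrays (adjusted p = 0.943), and against all vehicle arrays it was -0.12 ± 0.23 when the array set was a block as well. Without the thalamus-rich arrays, Egr3 was 0.33 lower in tadalafil arrays than in the remaining pair of vehicle 1-3 arrays (difference -0.33 ± 0.11, adjusted p = 0.637), where with them the difference was 0.34 ± 0.47.

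The combination and vehicle arrays were close for all 7 genes, with differences of -0.05 to 0.35 and adjusted p of 0.995 to 0.998 in limma. For the combination against vehicle, 0 of 7 genes passed the adjusted p (0% of genes) and 0 had an unadjusted p under 0.05 (4.04%). Without vehicle 3 and CM-414 3 all 7 differences were below 0, at -0.21 to -0.01. Nr4a1 was 0.83 ± 0.33 (SE) and Egr2 0.52 ± 0.21 lower with the combination than with vorinostat (differences of -0.83 and -0.52, adjusted p = 0.512 and 0.535 in limma). The vorinostat arrays were all in the first set, while 4 of the 7 combination arrays were in the second. With the array set as a block the differences were -0.63 ± 0.36 and -0.37 ± 0.23 (adjusted p = 0.774 and 0.812), and without the thalamus-rich arrays as well they were -0.46 ± 0.22 and -0.31 ± 0.22. Without the block, 0 of 7 genes passed the adjusted p over 24 arrays (0% of genes) and these 2 had an unadjusted p under 0.05 (8.41%). Against tadalafil the counts were 0 (0%) and 0 (4.17%).

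**Figure D4:**
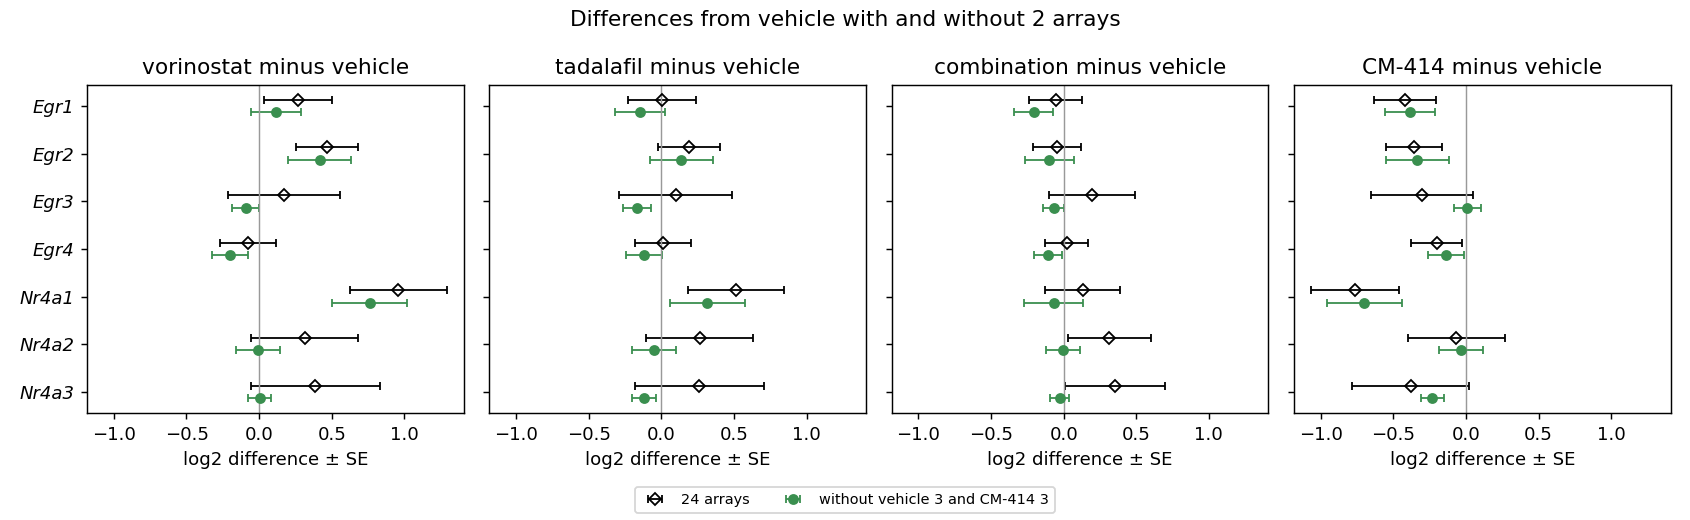
Difference of each treatment from vehicle for the 7 genes (log2, ± SE), with all 24 arrays as open diamonds and without vehicle 3 and CM-414 3 as green circles. Nr4a1 keeps its place in the vorinostat and CM-414 panels, while Nr4a3, Nr4a2 and Egr3 move to or past 0 with vorinostat, tadalafil and the combination when these arrays are left out.

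Of the 5 groups, CM-414 had the lowest mean of Nr4a1. Its arrays averaged 8.33 ± 0.56 (SD, n = 4), against 9.10 ± 0.57 in vehicle (SD, n = 7), a difference of -0.76 ± 0.30 (SE, log2) with an adjusted p of 0.279 in limma. In this comparison 0 of 7 genes passed the adjusted p (0.00585% of genes did) and 1, Nr4a1, had an unadjusted p under 0.05 (12.6%). Within the second array set the difference from vehicle 4-7 was -0.91 ± 0.28 (adjusted p = 0.322), and without the thalamus-rich arrays it was -0.65 ± 0.18 (adjusted p = 0.244). There 0 of 7 genes passed the adjusted p over 24 arrays (0% of genes) and 2, Nr4a1 and Egr1, had an unadjusted p under 0.05 (10.3%). Over 22 arrays 0 passed (0%) and the 2 were Nr4a1 and Nr4a3 (10.6%). Nr4a1 and Nr4a3 did not overlap between CM-414 and vehicle 4-7 arrays, as was so for 4.38% of genes. Nr4a3, at 8.83, 8.62, 6.60 and 8.69 with CM-414 and at 8.92, 9.00, 8.93 and 8.91 in vehicle 4-7, was lower by 0.23 ± 0.09 without the thalamus-rich arrays (difference -0.23, adjusted p = 0.378).

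Egr1, the member most studied in memory, was at 8.32, 8.11, 7.60 and 8.63 in CM-414 arrays and at 8.56, 8.72, 8.74 and 8.88 in vehicle 4-7. The groups overlapped in CM-414 4, and the difference was -0.56 ± 0.24 (SE, log2; adjusted p = 0.445 in limma), or -0.37 ± 0.19 without the thalamus-rich arrays (adjusted p = 0.494). Vorinostat arrays held 8.84, 9.19 and 8.53 for Egr1 and tadalafil arrays 8.01, 8.89 and 8.86, while the 7 combination arrays held 8.24 to 8.77 with a median of 8.62. All of these ranges overlapped with the vehicle arrays (7.67 to 8.96, median 8.72).

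The combination and vehicle groups span both array sets, so the sets were compared within them. Nr4a1 was at 8.98, 8.64, 8.90 and 8.63 in combination replicas 4-7 and at 9.89, 9.67 and 9.91 in combination replicas 1-3, with no overlap. The difference was -1.03 ± 0.31 (SE, log2; 0.489-fold) with an adjusted p of 0.362 in limma over 24 arrays. Without vehicle 3 and CM-414 3, which belong to other groups but enter the shared estimate of the spread, the same difference of -1.03 had an SE of 0.18 and an adjusted p of 0.0254, so that Nr4a1 passed (0.0701% of genes did) and was lower in replicas 4-7. Over 24 arrays 0 of 7 genes passed the adjusted p (0.00585% of genes) and 2, Nr4a1 and Egr2, had an unadjusted p under 0.05 (8.01%). The same 2 genes did not overlap between these arrays, as was so for 14.2% of genes, and Egr2 differed by -0.58 ± 0.21 (adjusted p = 0.479).

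In vehicle arrays Nr4a1 did not divide in this way. Replicas 4-7 held 9.06, 8.93, 9.62 and 9.36 and replicas 1-3 held 9.32, 9.49 and 7.91, with a difference of 0.34 ± 0.31 (SE) over all arrays and -0.16 ± 0.20 without the thalamus-rich arrays. For vehicle 4-7 against vehicle 1-3, 0 of 7 genes passed the adjusted p (0.0351% of genes) and 1, Nr4a2, had an unadjusted p under 0.05 (12.6%), at 0.84 ± 0.39. That value was 0.12 without the thalamus-rich arrays. The mean of the within-vehicle and within-combination differences, replicas 4-7 minus replicas 1-3, was -0.35 ± 0.22 for Nr4a1 (adjusted p = 0.474) and -0.60 ± 0.14 without vehicle 3 and CM-414 3 (adjusted p = 0.0286, with 2.22% of genes past it). In that comparison 0 of 7 genes passed over 24 arrays (1.16% of genes) and 0 had an unadjusted p under 0.05 (15.2%).

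The estimated effect of the combination on Nr4a1 had opposite signs in the array sets, but neither estimate passed the adjusted p. Combination replicas 4-7 were 0.46 ± 0.28 below vehicle 4-7 (difference -0.46, SE, log2), and combination replicas 1-3 were 0.91 ± 0.33 above vehicle 1-3, or 0.41 ± 0.21 without the thalamus-rich arrays. The difference between these effects was -1.37 ± 0.43 over 24 arrays and -0.87 ± 0.27 without vehicle 3 and CM-414 3, with adjusted p of 0.972 and 0.929 in limma. For that difference 0 of 7 genes passed the adjusted p (0% of genes) and 2, Nr4a1 and Egr2, had an unadjusted p under 0.05 (4.22%). Within replicas 4-7, 0 of 7 genes passed (0%) and 0 had an unadjusted p under 0.05 (3.64%). Egr2 alone did not overlap, at 6.18 to 6.34 with the combination and 6.39 to 6.75 in vehicle (3.58% of genes). Over 22 arrays 0 passed there (0%) and 1, Nr4a1, had an unadjusted p under 0.05 (4.82%), at -0.46 ± 0.17. Within replicas 1-3 over 24 arrays, 0 passed (0%) and 2, Nr4a1 and Nr4a2, had an unadjusted p under 0.05 (5.82%). Without the thalamus-rich arrays that was so for 1 gene, Egr3, at -0.24 ± 0.11 (5.21%), and Nr4a2 was at 0.16 ± 0.20.

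Tissue markers of the combination arrays were set beside these differences. The mean of the thalamus markers was 7.11 to 7.25 in combination replicas 4-7 and 7.02 to 7.26 in replicas 1-3. Dentate granule neuron markers were at 7.33 to 7.53 in replicas 4-7 and 6.66 to 7.40 in replicas 1-3, and choroid plexus markers at 7.28 to 8.89 in replicas 4-7 and 6.76 to 7.59 in replicas 1-3, so that these ranges overlapped. Interneuron markers were at 8.44 to 8.63 in replicas 4-7 and 8.70 to 8.80 in replicas 1-3, with no overlap, the only such list of the 10 marker lists. In vehicle arrays, interneuron markers were likewise lower in replicas 4-7 (8.41 to 8.54) than in replicas 1-3 without vehicle 3 (8.62 to 8.76). Vehicle 3 itself was at 8.23. The part of these markers in the difference of Nr4a1 was not tested.

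Egr3, Egr4, Nr4a2 and Nr4a3 lay within -0.23 to 0.01 of vehicle in every treatment once vehicle 3 and CM-414 3 were set aside (log2 differences of group means). Egr3, which mice need for long-term memory and for muscle spindles, was at 8.20, 8.35 and 8.29 in vorinostat arrays, at 8.11, 8.19 and 8.32 in tadalafil arrays and at 8.17 to 8.49 in the combination. CM-414 arrays other than the third held 8.63, 8.21 and 8.31, and vehicle arrays other than the third 8.18 to 8.53. Nr4a2, known from dopamine neurons as Nurr1, averaged 9.91 in vorinostat, 9.86 in tadalafil, 9.91 in combination, 9.88 in CM-414 and 9.92 in vehicle arrays. Egr4 averaged 6.72, 6.80, 6.81, 6.78 and 6.92 in the same order of groups. Over these 22 arrays none of the 4 genes passed the adjusted p in any comparison (limma), and among treatments against all vehicle arrays only Nr4a3 with CM-414 had an unadjusted p under 0.05, at a difference of -0.23 ± 0.08 (adjusted p = 0.196).

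The genes were then compared with each other over the 22 arrays, which share a normalization and array sets. Permutations shuffled all 22 arrays without regard to group or array set. Their p-values therefore also reflect group and set differences common to both genes of a pair. Nr4a1 and Egr2 had a Pearson r of 0.86 and a Spearman rho of 0.86 (permutation p = 1e-05 for both, the smallest that 100000 resamples can give; 0.000105 and 0.00021 adjusted over 21 pairs). Egr1 and Egr2 had an r of 0.82 and a rho of 0.71 (permutation p = 1e-05 and 0.00034, adjusted 0.000105 and 0.00357), and Egr1 and Nr4a1 an r of 0.72 and a rho of 0.68 (permutation p = 0.00012 and 0.00071, adjusted 0.00084 and 0.00497). Leaving out the 2 arrays farthest from the median of the first gene named gave 0.78 for Egr1 and Egr2, 0.74 for Egr1 and Nr4a1, and 0.82 for Egr2 and Nr4a1.

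These relations also held inside each array set. In the second set (11 arrays) r was 0.69 for Nr4a1 and Egr2, 0.80 for Egr1 and Egr2 and 0.85 for Egr1 and Nr4a1, and in the first set (11 arrays) it was 0.88, 0.84 and 0.72. Egr1 and Nr4a2 followed with an r of 0.64 and a rho of 0.61 (permutation p = 0.00137 and 0.00303, adjusted 0.00719 and 0.0159), though r was 0.39 without the 2 farthest arrays. The other 17 pairs did not pass after adjustment. Egr3 and Nr4a3 had an r of 0.21 over 22 arrays and 0.95 over 24, where it rested on vehicle 3 and CM-414 3.

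**Figure D5:**
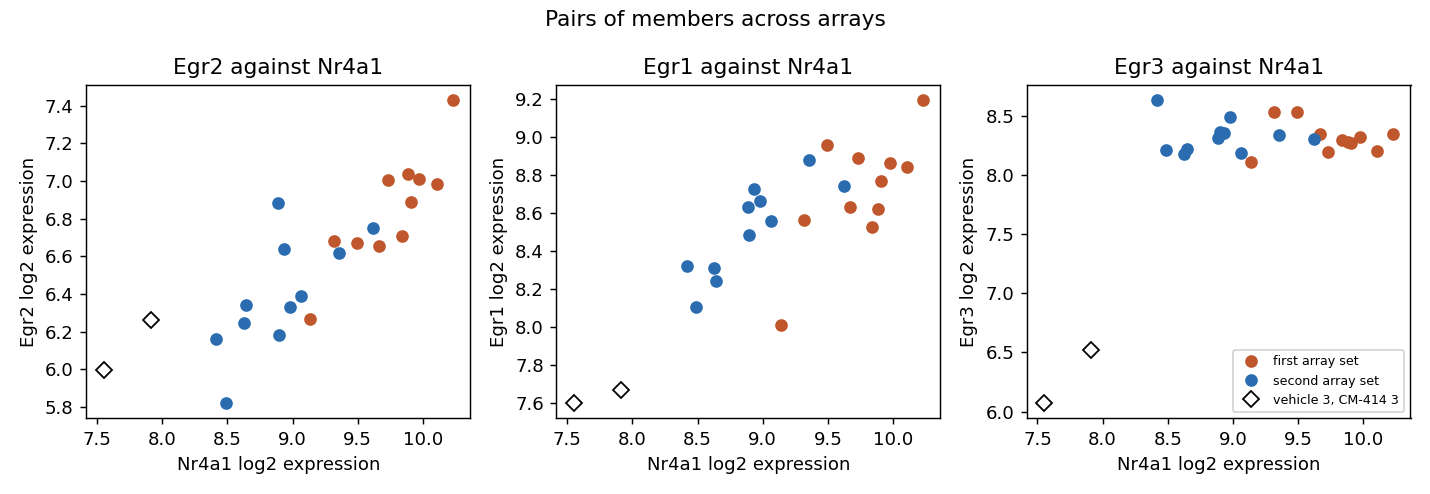
Log2 expression of Egr2, Egr1 and Egr3 against Nr4a1 in each array, coloured by array set, with vehicle 3 and CM-414 3 as open diamonds. Egr2 and Egr1 follow Nr4a1 within each set, while Egr3 is level across the range of Nr4a1 in the 22 filled points.

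The genes whose pattern was most like that of each member were sought among all genes, with Pearson's r over the 24 arrays and the same r over 22 arrays as a description. Nr4a1 was most like Per1, a clock gene that CREB induces (r = 0.92 and 0.88), Arc, a synaptic immediate early gene (0.92 and 0.86), and Junb, an AP-1 factor (0.89 and 0.83). Egr1 was most like Arc (0.92 and 0.83), Junb (0.88 and 0.78) and Nr4a1, and Egr2 was most like Nr4a1, the AP-1 factor Fos (0.84 and 0.89) and the phosphatase Dusp1 (0.81 and 0.83). For Nr4a3 the 3 genes were Ctxn1, Dlgap1 and Baiap2, all at 0.98 over 24 arrays and at 0.15 to 0.34 over 22. Egr3 was most like Cnksr2, Grasp and Chrm1 (0.98 each, and 0.44 to 0.76 over 22), Nr4a2 most like Tbr1, Pde2a and Ctxn1 (0.93 each, and 0.12 to 0.59), and Egr4 most like Chst1, Alkal2 and Cck (0.83 to 0.84, and 0.41 to 0.60). The mean of all 7 genes was most like Arc in both readings (0.94 and 0.92). The next 7 genes over 24 arrays, Plk2, Tmem178, Ccnd2, Syt1, Baiap2, Dlgap1 and Ywhaz, had 0.90 to 0.92 there and 0.11 to 0.46 over 22.

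Of 43 other activity-induced genes, all measured, none passed the adjusted p in any comparison over 24 arrays (limma), and 13 had an unadjusted p under 0.05 in the test among the 5 groups (13.7% of all genes). Over 22 arrays, 3 passed in replicas 4-7 against 1-3 (2.22% of genes), the phosphatase genes Dusp6 (-0.63) and Dusp5 (-0.47) and Tiparp (-0.35), and 2 passed in combination replicas 4-7 against 1-3 (0.0701%), Dusp6 (-0.84) and Inhba, an activin subunit (0.81). In the test among the 5 groups over 24 arrays, the 3 of smallest p were Tiparp (adjusted p = 0.0509), Btg2 (0.0756) and Dusp1 (0.0937). With vorinostat against vehicle they stood at 0.67 ± 0.14, 0.90 ± 0.19 and 0.80 ± 0.20 (SE, log2), with adjusted p of 0.145, 0.171 and 0.323. In combination replicas 4-7 against 1-3 over 24 arrays, the median of the list was -0.18 (-0.01 over all genes), with 8 of 43 above 0. An unadjusted p under 0.05 was found for 12 of the 43 (8.01% of all genes), 11 of them below 0. Fos, whose protein pairs with Jun, was at 6.12 to 6.62 in combination replicas 4-7 and at 7.03 to 7.13 in replicas 1-3, a difference of -0.72 ± 0.23 (adjusted p = 0.419).

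Genes for partners and upstream regulators of the members showed no treatment difference past the adjusted p in limma over 24 or 22 arrays. Of 6 partners and corepressors of Egr factors, 0 passed in the 15 contrasts and the test among the groups, and Sp1, which competes for GC-rich sites, came closest in the latter test (adjusted p = 0.0862), ahead of the acetyltransferase Ep300 (0.502) and Nab1 (0.536). Of 6 measured retinoid X receptors and other partners of Nr4a factors, 1 passed in replicas 4-7 against 1-3, where 1.16% of all genes did. This was the coactivator Ncoa3, which was higher by 0.21 ± 0.04 (adjusted p = 0.0216). Of 13 upstream transcription factors and coactivators none passed, with Crtc2 (0.296), Mef2a (0.374) and Creb1 (0.821) of smallest p in the test among the groups. Of 14 upstream kinases and phosphatases, 1 passed, again between the array sets (1.16% of all genes). This was the calcineurin subunit Ppp3cb, higher in replicas 4-7 by 0.25 ± 0.06 (adjusted p = 0.0495). In the test among the groups, 1, 2, 1 and 1 genes of these 4 lists had an unadjusted p under 0.05 (13.7% of all genes).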

How the data were processed

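Affymetrix Mouse Gene 2.0 ST arrays read hippocampal RNA from single animals. The authors deposited log2 values after RMA background correction and normalization (version not given in the sources used here), with medians of 5.90 to 5.98 over 24 arrays. Scanner files were not used here. The labels call the arrays biological replicas without naming litters or days, so p-values measure the spread between these samples, and the number of arrays limits the precision.

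After the study's methods, probe sets were kept if above 4 (log2) in 2 or more arrays per group. Only protein-coding genes and probe sets of a single gene were used, and the probe set with the highest mean stood for a gene. Groups were fitted with limma 3.58.1 in R 4.3.3, as 5 group means or as 7 means with vehicle and combination divided into replicas 1-3 and 4-7, with Benjamini-Hochberg adjustment over 17108 genes at 0.05. All groups shared an estimate of the spread. Correlations used 100000 permutations. The fit was tested on simulated data.

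Members and gene lists were chosen with earlier results of these data known. Named are all 7 members, genes of each list past the adjusted p or otherwise the 3 of smallest p among the groups, and per member the 3 genes of highest r (8 for the mean). Fos in the comparison of combination replicas was named after its values were seen. Alternatives were no filter, mean probe sets, median centring, array weights, a trended robust prior, the replicate number or array set as a block, only the groups compared, vehicle 3 and CM-414 3 left out, and each array left out in turn. The set block without those arrays was added after seeing the data.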

Additional observations from a re-analysis of the deposited data

Results flagged for a closer look

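In groups of at least 4 arrays, 7 of 21 member and group combinations held an array whose gap to its nearest neighbour was large against the group's range (Dixon's test, by which chance marks about 5% of groups). All 7 were low values of vehicle 3 or CM-414 3. In vehicle 3 these were Egr1 (7.67), Egr3 (6.52), Nr4a1 (7.91), Nr4a2 (7.69) and Nr4a3 (6.28). In CM-414 3 they were Egr3 (6.07) and Nr4a3 (6.60). Thalamus markers were high and CA1 markers low in the same arrays, and their part in the low values was not tested.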

How the results depend on the processing

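Over 24 arrays 0 of the 7 genes passed the adjusted p in any comparison, and this held under every alternative run except for Nr4a1. Without vehicle 3 and CM-414 3, and also with array weights, 1 gene, Nr4a1, passed in replicas 4-7 minus replicas 1-3 (-0.60 and -0.55) and in combination 4-7 minus combination 1-3 (-1.03 and -1.04). Leaving out each array in turn gave 0 to 1 members passing in the test among the 5 groups (Nr4a1 without vehicle 3) and 0 in all other comparisons. Egr3 changed sign without vehicle 3 and CM-414 3: vorinostat, tadalafil and combination 1-3 minus vehicle 1-3 were -0.25, -0.33 and -0.24, and vehicle 4-7 minus vehicle 1-3 was -0.24, while tadalafil minus vehicle was -0.23 with the array set block as well. Of 105 member differences, 35 changed sign without these arrays, 24 with array weights, 1 with median centring and 0 with no filter, mean probe sets or a trended prior. Of 42, 5 changed sign with the array set block, 6 with the replicate block and 18 with the set block without vehicle 3 and CM-414 3.

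The replicate numbers were not taken to pair the arrays, since deviations did not correlate above 0.1 in every same-numbered pair: 12 of 36 did, and 4 of 7 between vehicle and combination (r from -0.24 to 0.73). Of 24 arrays, 10 correlated best with an array of their own number. No count to set beside these was worked out for unpaired arrays, and the thalamus-rich vehicle 3 and CM-414 3 share a number. These values therefore cannot decide whether the numbers pair animals. With the replicate block 0 members passed in any comparison, and Nr4a1 differed by 0.85 with vorinostat and by -0.88 with CM-414. Over all genes the block called 275 for CM-414 minus vehicle, against 1 without it, and 52 among the groups, against 26. Counts over all genes ranged from 0 to 87 over the alternatives in the test among the groups (26 as reported), from 0 to 17 for vorinostat (1), from 145 to 1025 for replicas 4-7 minus 1-3 (198), from 5 to 189 in vehicle (6) and from 1 to 116 in the combination (1).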
